A study of Mus musculus with 24 samples.

Results

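Livers that lacked JNK2 in hepatocytes were compared with livers that lacked both JNK1 and JNK2, all from mice fed a high fat diet. The members were chosen by their labels: 3 libraries of the high fat Jnk1Jnk2 group and 3 of the high fat Jnk2 group, 6 of the 24 libraries of the study. Total liver RNA of C57BL/6J mice was sequenced after 16 weeks of chow or of a high fat diet, in 4 genotypes on each diet with 3 libraries per group. Jnk1Jnk2 mice carried Alb-Cre with floxed Jnk1 (Mapk8) and floxed Jnk2 (Mapk9) alleles. Jnk2 mice carried Alb-Cre with floxed Jnk2 alleles, Jnk1 mice carried Alb-Cre with floxed Jnk1 alleles, and control mice carried Alb-Cre alone. Every group therefore carried the transgene, which drives recombination in hepatocytes, while other liver cells kept their alleles. Both groups compared had lost Jnk2, so by genotype they differ in the loss of Jnk1 added to it. Their libraries also differed in other ways, which are given below. No label states whether the replicates of a group were different mice. The p-values therefore speak of the spread among these libraries only, and part or all of it may be technical.

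JNK1 and JNK2 are stress-activated MAP kinases. They are switched on by the MAP kinase kinases MKK4 and MKK7, switched off by dual-specificity phosphatases, and best known for phosphorylating c-Jun, a subunit of the transcription factor AP-1. In liver, JNK is known for its part in insulin resistance and for repressing the nuclear receptor PPARα through the corepressor NCoR1. PPARα turns on fatty acid oxidation and the hormone FGF21.

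Expression is given in FPKM, which is scaled to transcript length. Changes are differences of log2(FPKM + 1), Jnk1Jnk2 minus Jnk2, with their standard error, and they understate the change of low genes. Tests were made with limma, the adjusted p is by Benjamini-Hochberg over the 10562 loci with a mean of at least 1 FPKM, and a locus was called below 0.05. As deposited, 5121 loci were called (48.5%), of which 1619 were higher (15.3%) and 3502 lower (33.2%) in Jnk1Jnk2 livers. The median change of all loci was -0.14. Scaling by size factors gave 2315 higher and 2593 lower calls with a median of -0.03, and quantile normalization gave 1936 higher and 2329 lower calls with a median of -0.02. All 3 libraries of each group lay apart at 5381 loci (50.9%).

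Much of this difference followed transcript length. In the Jnk1Jnk2 libraries, Spearman's correlation over loci between transcript length and the deviation from the mean of all libraries was -0.61, -0.66 and -0.60, against -0.12, -0.24 and 0.24 in the Jnk2 libraries. All 3 Jnk1Jnk2 libraries had short transcripts high and long transcripts low, which no Jnk2 library showed to that degree. Among the decile of loci with the shortest transcripts (64 to 1084 bases) the median change was 0.53, with 599 loci called higher and 11 lower. Among the decile with the longest transcripts it was -0.43, with 17 loci called higher and 706 lower. The sums of FPKM were also higher in Jnk1Jnk2 libraries, at 849038, 873399 and 852069, against 671202, 704343 and 708573 in Jnk2 libraries. On chow, the Jnk1Jnk2 libraries had correlations with length of 0.12, 0.42 and 0.36. Between the high fat groups compared, the length trend and the genotype move together and cannot be told apart. A smooth trend on length was therefore removed from each library, and counts over all loci are given both ways. For single genes the change and adjusted p are as deposited unless stated otherwise, and the size without the trend can differ. Without the trend 2376 of 10194 loci were called (23.3%), 1137 higher (11.2%) and 1239 lower (12.2%), with a median change of -0.004. Called in the same direction both ways were 1705 loci (16.7%), 643 higher (6.31%) and 1062 lower (10.4%). Below, "rose" and "fell" are kept for loci called both ways. Counts of rises and falls in every gene list are to be read beside these 6.31% and 10.4%. Counts as deposited are to be read beside 15.3% higher and 33.2% lower.

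**Figure D1:**
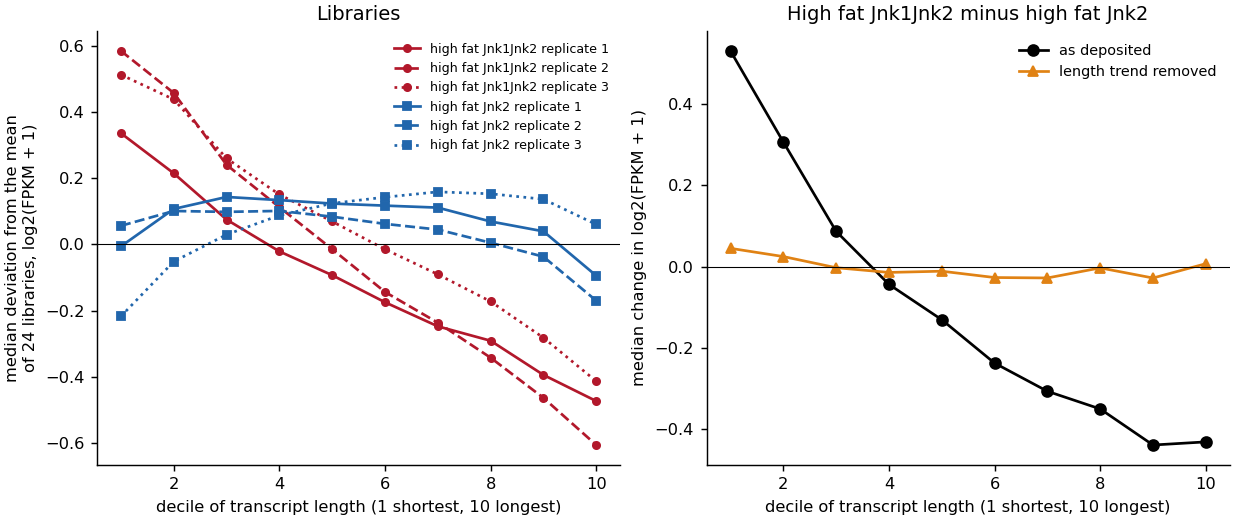
The left plot gives the median deviation of each high fat Jnk1Jnk2 and Jnk2 library from the mean of all 24 libraries, in log2(FPKM + 1), by decile of transcript length. The right plot gives the median change, high fat Jnk1Jnk2 minus high fat Jnk2, as deposited and with the length trend removed. As deposited it runs from 0.53 in the shortest decile to -0.43 in the longest, and it lies near 0 with the trend removed.

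Some libraries stood apart. Replicate 3 of the Jnk2 group correlated at 0.9514 and 0.9523 with its mates over log2(FPKM + 1), while replicates 1 and 2 correlated at 0.9768. The 3 Jnk1Jnk2 pairs correlated at 0.9671 to 0.9729. Jnk1Jnk2 replicate 3 was the shallowest of the 6, with 0.3 of the depth of the deepest library of the study by the step between low values, and it held skeletal muscle RNA. Ckm, the muscle creatine kinase, was chosen after its values were seen. It had 0.0473, 0.0408 and 61.3 FPKM in Jnk1Jnk2 livers, against 0, 0 and 0.0871 FPKM in Jnk2 livers. The 9 muscle markers tested were not called in either direction. Hepatocyte markers, 9 of 10 of them tested, summed to 40578 to 46915 FPKM in Jnk1Jnk2 livers and to 43791 to 44970 FPKM in Jnk2 livers, so the libraries were liver by these markers.

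The targeted genes followed the labels. Mapk8 (mm10 chromosome 14, 33377899 to 33447158), which encodes JNK1, had 1.03, 0.845 and 1.49 FPKM in Jnk1Jnk2 livers, against 3.94, 3.38 and 4.84 FPKM in Jnk2 livers. The groups did not overlap. The change was -1.25 ± 0.11 (adjusted p = 1.63e-06) as deposited and -1.23 (adjusted p = 2.2e-06) with the length trend removed. Mapk8 averaged 1.88 ± 0.0429 FPKM in Jnk1 livers and 4.29 ± 0.237 FPKM in control livers (SD, n = 3 each). The values cover the whole locus, so reads from outside the floxed part and from other cells remain in them.

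Mapk9 (mm10 chromosome 11, 49846751 to 49886421), which encodes JNK2, was floxed in both groups. It had 4.81, 4.33 and 4.73 FPKM in Jnk1Jnk2 livers, against 7.44, 6.58 and 7.79 FPKM in Jnk2 livers. Control livers averaged 11 ± 0.765 FPKM and Jnk1 livers 11.5 ± 0.428 FPKM (SD, n = 3 each), so both floxed groups lay under both. The difference between the floxed groups was called as deposited, at -0.55 ± 0.08 (adjusted p = 7.57e-05), but not with the length trend removed, at -0.16 (adjusted p = 0.0878).

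Genes near Mapk8 gave some of the largest falls. Fam25c, 0.905 Mb from Mapk8, had 4.21, 2.53 and 0.672 FPKM in Jnk1Jnk2 livers, against 30.7, 31.8 and 25.3 FPKM in Jnk2 livers. Its change was -3.27 ± 0.32 (adjusted p = 4.48e-06), and Jnk1 livers, at 4.46 ± 0.592 FPKM, were also low, while control livers had 49.5 ± 3.76 FPKM. The predicted gene Gm3219, 0.898 Mb away, had 10.5, 15.8 and 7.53 FPKM in Jnk1Jnk2 livers, against 30.7, 36.3 and 17.9 FPKM in Jnk2 livers, a change of -1.26 ± 0.25 (adjusted p = 0.000495). Both lay low in the high fat groups with floxed Jnk1, where Gm3219 averaged 11.3 ± 4.19 FPKM (Jnk1Jnk2) and 7.23 ± 0.656 FPKM (Jnk1). Gdf10, a secreted member of the bone morphogenetic protein family 0.476 Mb away, had 0.875, 0.926 and 1.09 FPKM in Jnk1Jnk2 livers, against 4.16, 3.57 and 3.54 FPKM in Jnk2 livers (change -1.28 ± 0.15, adjusted p = 1.68e-05). Sh3bp5, 1.942 Mb away, encodes Sab, the docking protein of JNK on the mitochondrial outer membrane. It had 7.82, 7.15 and 9.34 FPKM in Jnk1Jnk2 livers, against 17.6, 16.3 and 19.1 FPKM in Jnk2 livers (change -1.04 ± 0.12, adjusted p = 1.35e-05). Without the length trend the changes were -3.85 for Fam25c, -1.73 for Gm3219, -0.85 for Gdf10 and -0.88 for Sh3bp5. Unlike Fam25c, Sh3bp5 was not low in Jnk1 livers, at 15.5 ± 0.714 FPKM, beside 16.5 ± 2.58 FPKM in control livers. Within 5 Mb of Mapk8, 5 of 57 tested loci rose and 8 fell (22.8%), and within 5 Mb of Mapk9, 6 of 60 rose and 6 fell (20.0%), beside 16.7% of all loci. On chow the change between the same genotypes was -3.46 for Fam25c and -1.86 for Gm3219. It was -0.28 for Gdf10 and 0.04 for Sh3bp5, and neither of these was called there. The floxed Jnk1 allele and loss of JNK1 go together in every group, and the part of linkage in these changes was not tested.

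A large change as deposited was at BC044868 (mm10 chromosome 19, 23051550 to 23075924), which was chosen after its values were seen and lies on neither targeted chromosome. It had 9.92, 12.3 and 7.66 FPKM in Jnk1Jnk2 livers, against 0.478, 0.594 and 0.756 FPKM in Jnk2 livers. The change was 2.75 ± 0.21 (adjusted p = 3.51e-07), with no transcript length to correct by, so it could not be called both ways. On chow it had 7.76, 10 and 14.5 FPKM in Jnk1Jnk2 livers, against 0.715, 0.773 and 0.91 FPKM in Jnk2 livers. It stayed low in high fat Jnk1 livers (1.12 ± 0.344 FPKM) and control livers (1.23 ± 0.549 FPKM), so among the high fat groups the double-floxed one stood alone.

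**Figure D2:**
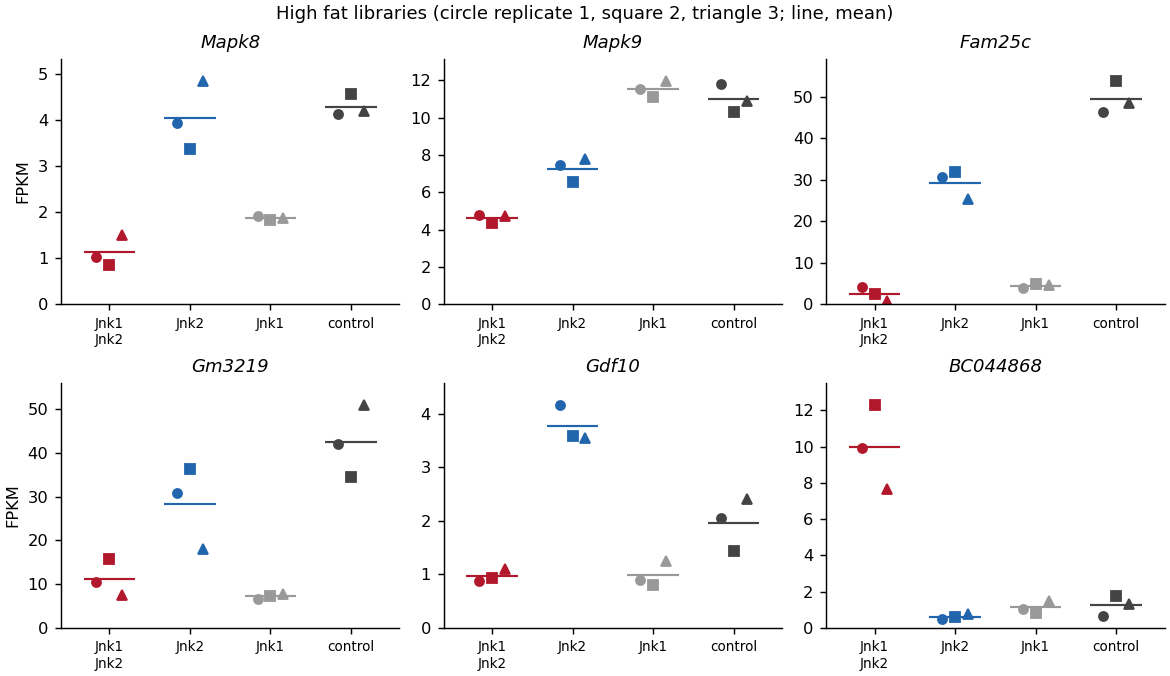
Each plot gives FPKM in the 3 libraries of the high fat Jnk1Jnk2, Jnk2, Jnk1 and control groups (circle replicate 1, square 2, triangle 3, line the mean). Mapk8, Fam25c and Gm3219 are low in both groups with floxed Jnk1, and BC044868 is high in the Jnk1Jnk2 group, where its mean is 9.96 FPKM.

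Jun and a few other genes of AP-1 and the immediate early response fell. Of 15 tested, 4 fell (Jun, Jund, Klf6 and Myc) and 0 rose, beside 10.4% and 6.31% of all loci. Leaving out 1 library left 2 to 4 that fell, fewest without Jnk2 replicate 3. As deposited 0 were higher, 7 lower and 8 not called, with medians of -0.50 as deposited and -0.46 without the length trend, beside -0.14 and -0.004 for all loci. Jun, the c-Jun subunit that JNK phosphorylates, had 3.25, 3.62 and 3.38 FPKM in Jnk1Jnk2 livers, against 8.22, 8.56 and 9.4 FPKM in Jnk2 livers. The groups lay far apart and varied little within themselves. Jun changed by -1.14 ± 0.27 (adjusted p = 0.00214) as deposited and by -0.89 (adjusted p = 0.0243) without the length trend. The call without the trend did not survive leaving out Jnk2 replicate 2 or 3 (adjusted p = 0.0547 and 0.0603) or Jnk1Jnk2 replicate 1, 2 or 3 (0.0512, 0.05 and 0.07). Myc, a growth-promoting transcription factor, had 1.79, 1.99 and 1.43 FPKM in Jnk1Jnk2 livers, against 6.99, 4.34 and 3.33 FPKM in Jnk2 livers (change -1.06 ± 0.24, adjusted p = 0.00145). Control livers had 1.2 ± 0.434 FPKM of Myc, so the Jnk2 livers were the high ones. Klf6, an immediate early zinc finger factor, had 1.5, 1.74 and 2.7 FPKM in Jnk1Jnk2 livers, against 5.1, 3.16 and 6.14 FPKM in Jnk2 livers. Its change was -0.95 ± 0.17 (adjusted p = 0.000258), and without the length trend -0.59 (adjusted p = 0.00967), or -0.46 (adjusted p = 0.053) when Jnk2 replicate 3 was left out. Jund, another AP-1 subunit, had 20.1, 24.7 and 16.5 FPKM in Jnk1Jnk2 livers, against 28.9, 32.3 and 38.1 FPKM in Jnk2 livers (change -0.68 ± 0.16, adjusted p = 0.00174). Fos, the usual partner of c-Jun, averaged 0.697 ± 0.309 and 1.37 ± 0.183 FPKM in Jnk1Jnk2 and Jnk2 livers (SD, n = 3 each) and was not called (change -0.50 ± 0.56, adjusted p = 0.481). It was called in a fit of only the 2 groups (adjusted p = 0.0432) and in a fit of only the high fat libraries (adjusted p = 0.0467).

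The promoters of Jun and Klf6 are shown because c-Jun is known to act on its own promoter through a site of the kind searched, and because both genes fell. RefSeq windows (GRCm38.p6) of 250 bases before to 50 after the start were searched on both strands for TGANTCA and for TGACNTCA, which includes TGACGTCA. Capitals mark the match, which in both windows was TGACATCA, 45 bases before the start in Jun (chr4:95052173-95052472, minus strand) and 119 bases before it in Klf6 (chr13:5861239-5861538, plus strand).
Jun: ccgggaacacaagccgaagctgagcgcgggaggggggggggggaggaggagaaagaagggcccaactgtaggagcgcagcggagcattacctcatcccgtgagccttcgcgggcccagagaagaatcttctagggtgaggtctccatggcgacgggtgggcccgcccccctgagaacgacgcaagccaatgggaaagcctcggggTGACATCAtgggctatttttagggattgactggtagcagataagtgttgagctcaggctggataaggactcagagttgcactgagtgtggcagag
Klf6: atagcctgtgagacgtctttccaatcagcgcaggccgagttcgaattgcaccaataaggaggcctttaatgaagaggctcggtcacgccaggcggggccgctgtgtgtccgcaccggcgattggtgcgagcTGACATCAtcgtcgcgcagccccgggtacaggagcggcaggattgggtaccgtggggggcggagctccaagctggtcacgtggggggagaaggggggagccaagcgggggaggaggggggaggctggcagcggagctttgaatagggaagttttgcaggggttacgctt
Over all 32851 windows, 8.83% held TGACNTCA and 7.81% held TGANTCA. Among genes with a window, TGACNTCA stood in 8.64% of those that fell, in 8.39% of those that rose and in 7.97% of those tested, so the motif was about as frequent in each. Among the 13 members of the AP-1 list with a window, 4 held a match, and of these 2 fell (Jun and Klf6) while Btg2 and Maff did not pass both ways. The window of Jund held neither motif. A match is a description of letters, not a bound site.

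Some kinases and phosphatases of the JNK pathway fell. Of 21 tested, 5 fell and 1 rose, beside 10.4% and 6.31% of all loci. The list holds the targeted Mapk8, which is 1 of the 5 and whose fall is set by the genotype. As deposited 15 were lower and 1 higher, beside 33.2% and 15.3%. Mapk8 and Mapk9, which was floxed in both groups, are among the 15. The medians were -0.50 as deposited and -0.18 without the length trend. Their median transcript length, 3695 bases, lies in a decile of loci of which 505 of 1020 were lower as deposited. Map2k4, which encodes the JNK activator MKK4, had 6.67, 6.51 and 7.11 FPKM in Jnk1Jnk2 livers, against 9.55, 9.81 and 12.4 FPKM in Jnk2 livers (change -0.57 ± 0.08, adjusted p = 6.39e-05). Map3k3, the upstream kinase MEKK3, averaged 1.98 ± 0.478 FPKM in Jnk1Jnk2 livers and 3.8 ± 0.494 FPKM in Jnk2 livers (change -0.69 ± 0.10, adjusted p = 6.69e-05). Dusp16, a phosphatase that inactivates JNK, averaged 2.86 ± 0.537 FPKM in Jnk1Jnk2 livers and 5.96 ± 0.724 FPKM in Jnk2 livers (SD, n = 3 each; change -0.86 ± 0.13, adjusted p = 7.41e-05). An activator and an inhibitor of JNK thus fell together. Map3k10, the mixed lineage kinase MLK2, was the member that rose, at 7.89, 11.9 and 11.9 FPKM in Jnk1Jnk2 livers, against 7.83, 8.19 and 4.84 FPKM in Jnk2 livers. Its groups overlapped, and the change of 0.55 ± 0.16 (adjusted p = 0.00857) became 0.34 (adjusted p = 0.0725) when Jnk2 replicate 3 was left out.

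PPARα itself and several of its partners fell. Of 17 regulators tested, 5 fell (Ppara, Rxra, Ncor1, Ncoa2 and Pparg) and 0 rose, beside 10.4% and 6.31% of all loci. As deposited 12 were lower, beside 33.2% of all loci. The medians were -0.56 as deposited and -0.14 without the length trend. Leaving out Jnk1Jnk2 replicate 2 left 3 that fell. Ppara had 28.8, 25.9 and 32.4 FPKM in Jnk1Jnk2 livers, against 49.7, 48.4 and 54.9 FPKM in Jnk2 livers. Every Jnk1Jnk2 library was lower than every Jnk2 library. The change was -0.79 ± 0.11 (adjusted p = 5.14e-05) as deposited and -0.58 (adjusted p = 0.000693) without the length trend. Rxra, the receptor that pairs with PPARα on DNA, had 61.2, 53.3 and 62.5 FPKM in Jnk1Jnk2 livers, against 87.5, 91.2 and 103 FPKM in Jnk2 livers (change -0.66 ± 0.11, adjusted p = 0.000198). Without the length trend the change was -0.66 with the median transcript model and -0.27 (adjusted p = 0.031) with the longest one. Pparg, whose product favours fat storage, had 4.17, 4.67 and 4.92 FPKM in Jnk1Jnk2 livers, against 13.9, 8.23 and 8.1 FPKM in Jnk2 livers (change -0.95 ± 0.20, adjusted p = 0.000802). The Jnk1Jnk2 livers lay near the control mean of 5.6 FPKM for Pparg. Ncor1, the corepressor of PPARα, averaged 8.71 ± 1.6 FPKM in Jnk1Jnk2 livers and 17.3 ± 3.21 FPKM in Jnk2 livers (SD, n = 3 each). Its change was -0.91 ± 0.17 (adjusted p = 0.000412), and -0.47 (adjusted p = 0.017) without the length trend, where leaving out Jnk2 replicate 3 or Jnk1Jnk2 replicate 2 ended the call (adjusted p = 0.0679 and 0.0904). Its transcript model is 7243 bases long, in the longest decile.

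The targets of PPARα divided, and the balance of falls and rises rested on single libraries. Of 46 tested, 10 fell and 2 rose, beside 10.4% and 6.31% of all loci. As deposited 14 were lower and 5 higher, beside 33.2% and 15.3%. The medians were -0.18 as deposited and -0.02 without the length trend. As deposited, their summed level was 22729 to 27014.5 FPKM in Jnk1Jnk2 livers and 19923.5 to 23819.9 FPKM in Jnk2 livers. These ranges overlapped, and both lay above all other libraries of the study, at 13474.2 to 17083.9 FPKM. Without Jnk2 replicate 3, 6 fell and 4 rose, and the medians were -0.06 and 0.08. The calls without the trend were then 6 lower and 7 higher, against 11 lower and 5 higher with all libraries. Without Jnk1Jnk2 replicate 2, 6 fell and 2 rose. Enzymes of peroxisomal and mitochondrial fatty acid oxidation were among those that fell. Hsd17b4, the peroxisomal bifunctional enzyme, had 166, 168 and 192 FPKM in Jnk1Jnk2 livers, against 276, 242 and 281 FPKM in Jnk2 livers (change -0.60 ± 0.09, adjusted p = 9.21e-05). Abcd3, a peroxisomal fatty acid transporter, averaged 133 ± 20 FPKM in Jnk1Jnk2 livers and 205 ± 11.5 FPKM in Jnk2 livers (change -0.63 ± 0.10, adjusted p = 0.000114). Aldh3a2, the fatty aldehyde dehydrogenase, averaged 286 ± 32.9 FPKM in Jnk1Jnk2 livers and 450 ± 53 FPKM in Jnk2 livers, and both exceeded the control mean of 188 ± 19.6 FPKM (SD, n = 3 each). Cpt2, the inner carnitine palmitoyltransferase of mitochondria, averaged 88.9 ± 1.82 FPKM in Jnk1Jnk2 livers and 121 ± 8.61 FPKM in Jnk2 livers (change -0.44 ± 0.08, adjusted p = 0.000435). In contrast, a mitochondrial enzyme rose. Mlycd, the malonyl-CoA decarboxylase that relieves the brake on fatty acid entry, had 94.2, 111 and 102 FPKM in Jnk1Jnk2 livers, against 68.9, 69.2 and 63 FPKM in Jnk2 livers (change 0.60 ± 0.11, adjusted p = 0.000229).

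Fgf21, the fasting hormone that PPARα induces, turned on a single library. It had 39.5, 44.8 and 54.2 FPKM in Jnk1Jnk2 livers, against 12.8, 13.6 and 68.2 FPKM in Jnk2 livers. Jnk2 replicate 3 was the highest of the 6, and the other 2 Jnk2 libraries were near the control mean of 10.7 ± 4.56 FPKM. With it, the change was 0.96 ± 0.44 and not called (adjusted p = 0.0779). Without it, the change was 1.72 (adjusted p = 0.000639) as deposited and 1.32 (adjusted p = 0.00431) with the length trend removed. Cyp4a14, a fatty acid hydroxylase and sensitive PPARα target, was chosen after its values were seen and showed the same library apart, at 1491, 1173 and 1065 FPKM in Jnk1Jnk2 livers, against 904, 1254 and 3312 FPKM in Jnk2 livers. It was not called with that library (change -0.34 ± 0.34, adjusted p = 0.428) or without it (0.21, adjusted p = 0.553).

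Insulin signalling genes were lower as deposited, in 16 of 22 tested with 0 higher, beside 33.2% and 15.3% of all loci. They were less so without the length trend, with 6 that fell both ways and 0 that rose, beside 10.4% and 6.31%. The medians were -0.47 and -0.05. Without Jnk1Jnk2 replicate 2, 2 fell, and without Jnk2 replicate 3 or Jnk1Jnk2 replicate 3, 4 fell. Insr, the insulin receptor, had 7.26, 4.94 and 7.92 FPKM in Jnk1Jnk2 livers, against 10.9, 10.5 and 15 FPKM in Jnk2 livers, below the 19.3 ± 2.27 FPKM of control livers in both. Its change was -0.78 ± 0.15 (adjusted p = 0.00045) as deposited and -0.35 (adjusted p = 0.019) without the length trend. There the call ended without Jnk2 replicate 3 (-0.26, adjusted p = 0.0949) or without Jnk1Jnk2 replicate 2 (-0.22, adjusted p = 0.127). Foxo3, a forkhead factor that insulin keeps out of the nucleus, averaged 3.64 ± 0.19 FPKM in Jnk1Jnk2 livers and 6.67 ± 0.963 FPKM in Jnk2 livers (change -0.72 ± 0.12, adjusted p = 0.00016). With the longest transcript model in place of the median one, Foxo3 was not called without the trend (-0.28, adjusted p = 0.074). Gsk3a, a kinase that restrains glycogen synthesis, averaged 11.2 ± 0.981 FPKM in Jnk1Jnk2 livers and 16.9 ± 0.578 FPKM in Jnk2 livers (change -0.55 ± 0.10, adjusted p = 0.000262). Eif4ebp2, a translation repressor under mTOR that was named for its size, had 16.1, 10.6 and 20.4 FPKM in Jnk1Jnk2 livers, against 43.6, 37.2 and 48.6 FPKM in Jnk2 livers. It fell by 1.44 ± 0.16 (adjusted p = 1.11e-05), and by more, 1.66, without the length trend.

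Fat synthesis and storage genes changed unevenly. Of 16 genes of de novo lipogenesis, 7 were lower as deposited and 0 higher, and 1 fell both ways; the medians were -0.49 and -0.24. Leaving out Jnk2 replicate 3 gave 10 lower as deposited and 7 lower without the length trend. Gpam, the acyltransferase that starts triglyceride synthesis, was the one that fell, at 8.14, 5.68 and 13.8 FPKM in Jnk1Jnk2 livers, against 24.5, 19.8 and 35.8 FPKM in Jnk2 livers (change -1.48 ± 0.22, adjusted p = 8.02e-05; without the trend -1.06, adjusted p = 0.000749). Scd1 and Srebf1, chosen after their values were seen, showed what that library did. Scd1, the stearoyl-CoA desaturase, had 20.3, 52 and 122 FPKM in Jnk1Jnk2 livers, against 495, 307 and 25.5 FPKM in Jnk2 livers. It was not called with all libraries (change -1.62 ± 0.73, adjusted p = 0.0724), and was -2.92 (adjusted p = 0.000422) without Jnk2 replicate 3. Srebf1, the master regulator of lipogenesis, had 6.6, 8.61 and 9.92 FPKM in Jnk1Jnk2 livers, against 24.3, 26 and 8.08 FPKM in Jnk2 livers. Its change was -0.99 ± 0.30 (adjusted p = 0.0119), or -1.49 (adjusted p = 0.000216) without Jnk2 replicate 3; it was not called without Jnk2 replicate 1 or 2 or Jnk1Jnk2 replicate 1 (adjusted p = 0.0709, 0.0748 and 0.0508), nor with the length trend removed (adjusted p = 0.158).

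Among 16 lipid droplet genes, 2 fell and 1 rose, beside 10.4% and 6.31% of all loci. Hsd17b13, an enzyme that sits on hepatocyte lipid droplets, had 177, 205 and 233 FPKM in Jnk1Jnk2 livers, against 357, 283 and 485 FPKM in Jnk2 livers (change -0.84 ± 0.18, adjusted p = 0.000965). G0s2, the inhibitor of adipose triglyceride lipase, had 826, 740 and 765 FPKM in Jnk1Jnk2 livers, against 221, 299 and 349 FPKM in Jnk2 livers. All Jnk1Jnk2 libraries were higher, and the change was 1.44 ± 0.32 (adjusted p = 0.00133). Without the length trend it was 0.93 (adjusted p = 0.0429), a call that ended on leaving out Jnk2 replicate 1 or 2 (adjusted p = 0.17 and 0.0819) or Jnk1Jnk2 replicate 1, 2 or 3 (0.126, 0.0728 and 0.0693). Pnpla7, a lysophospholipase named for the size of its rise, had 83.5, 90.9 and 101 FPKM in Jnk1Jnk2 livers, against 43.4, 45.1 and 57.2 FPKM in Jnk2 livers (change 0.91 ± 0.14, adjusted p = 8.61e-05). Of 16 apolipoprotein and VLDL genes, 8 were higher and 2 lower as deposited, but 1 rose and 0 fell both ways, with medians of 0.38 as deposited and -0.01 without the trend. The member that rose was Apoa5, which lowers plasma triglyceride, at 867 ± 128 FPKM in Jnk1Jnk2 livers and 564 ± 93.5 FPKM in Jnk2 livers (SD, n = 3 each; change 0.62 ± 0.14, adjusted p = 0.00125). After quantile normalization Apoa5 was not called (0.32, adjusted p = 0.135).

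A few drug-metabolizing genes fell by large amounts, while most genes of the P450 list did not pass both ways. Of 25 xenobiotic P450 genes, 2 fell and 0 rose, beside 10.4% and 6.31% of all loci, with medians of -0.07 as deposited and -0.14 without the length trend; leaving out Jnk2 replicate 3 gave 10 lower and 0 higher, as deposited and without the trend alike. Cyp2f2, a P450 of periportal hepatocytes, had 194, 170 and 164 FPKM in Jnk1Jnk2 livers, against 521, 426 and 446 FPKM in Jnk2 livers. The change was -1.39 ± 0.12 (adjusted p = 1.63e-06), with the Jnk1Jnk2 livers below and the Jnk2 livers above the control mean of 332 ± 49.2 FPKM. Cyp2c44 had 52.1, 41.9 and 38.4 FPKM in Jnk1Jnk2 livers, against 81.3, 91 and 87.2 FPKM in Jnk2 livers (change -0.97 ± 0.17, adjusted p = 0.000206). Cyp2a22, another P450 and one of the 15 largest falls, had 1.79, 2.75 and 4.08 FPKM in Jnk1Jnk2 livers, against 13.7, 10.9 and 4.82 FPKM in Jnk2 livers (change -1.42 ± 0.28, adjusted p = 0.000519). Jnk2 replicate 3 lay just above the Jnk1Jnk2 libraries there. Among 23 genes of glutathione metabolism and the antioxidant factor NRF2, 4 fell and 2 rose, beside 10.4% and 6.31% of all loci. Nfe2l2, which encodes NRF2, averaged 21.7 ± 2.09 FPKM in Jnk1Jnk2 livers and 31.4 ± 1.96 FPKM in Jnk2 livers (change -0.52 ± 0.09, adjusted p = 0.0003). Gstm3, a glutathione transferase, averaged 2.32 ± 0.938 FPKM in Jnk1Jnk2 livers and 8.03 ± 4.25 FPKM in Jnk2 livers (SD, n = 3 each; change -1.36 ± 0.31, adjusted p = 0.00155). The transferase Gstt2 moved the other way, at 138, 138 and 141 FPKM in Jnk1Jnk2 livers, against 70.5, 79.8 and 79.1 FPKM in Jnk2 livers (change 0.86 ± 0.11, adjusted p = 2.27e-05). Gpx4, the peroxidase that guards membranes from lipid peroxides, had 827, 878 and 848 FPKM in Jnk1Jnk2 livers, against 447, 439 and 321 FPKM in Jnk2 livers (change 1.10 ± 0.17, adjusted p = 0.000101). P450 and glutathione transferase genes have close paralogs that can share reads, so single values of these families are uncertain.

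**Figure D3:**
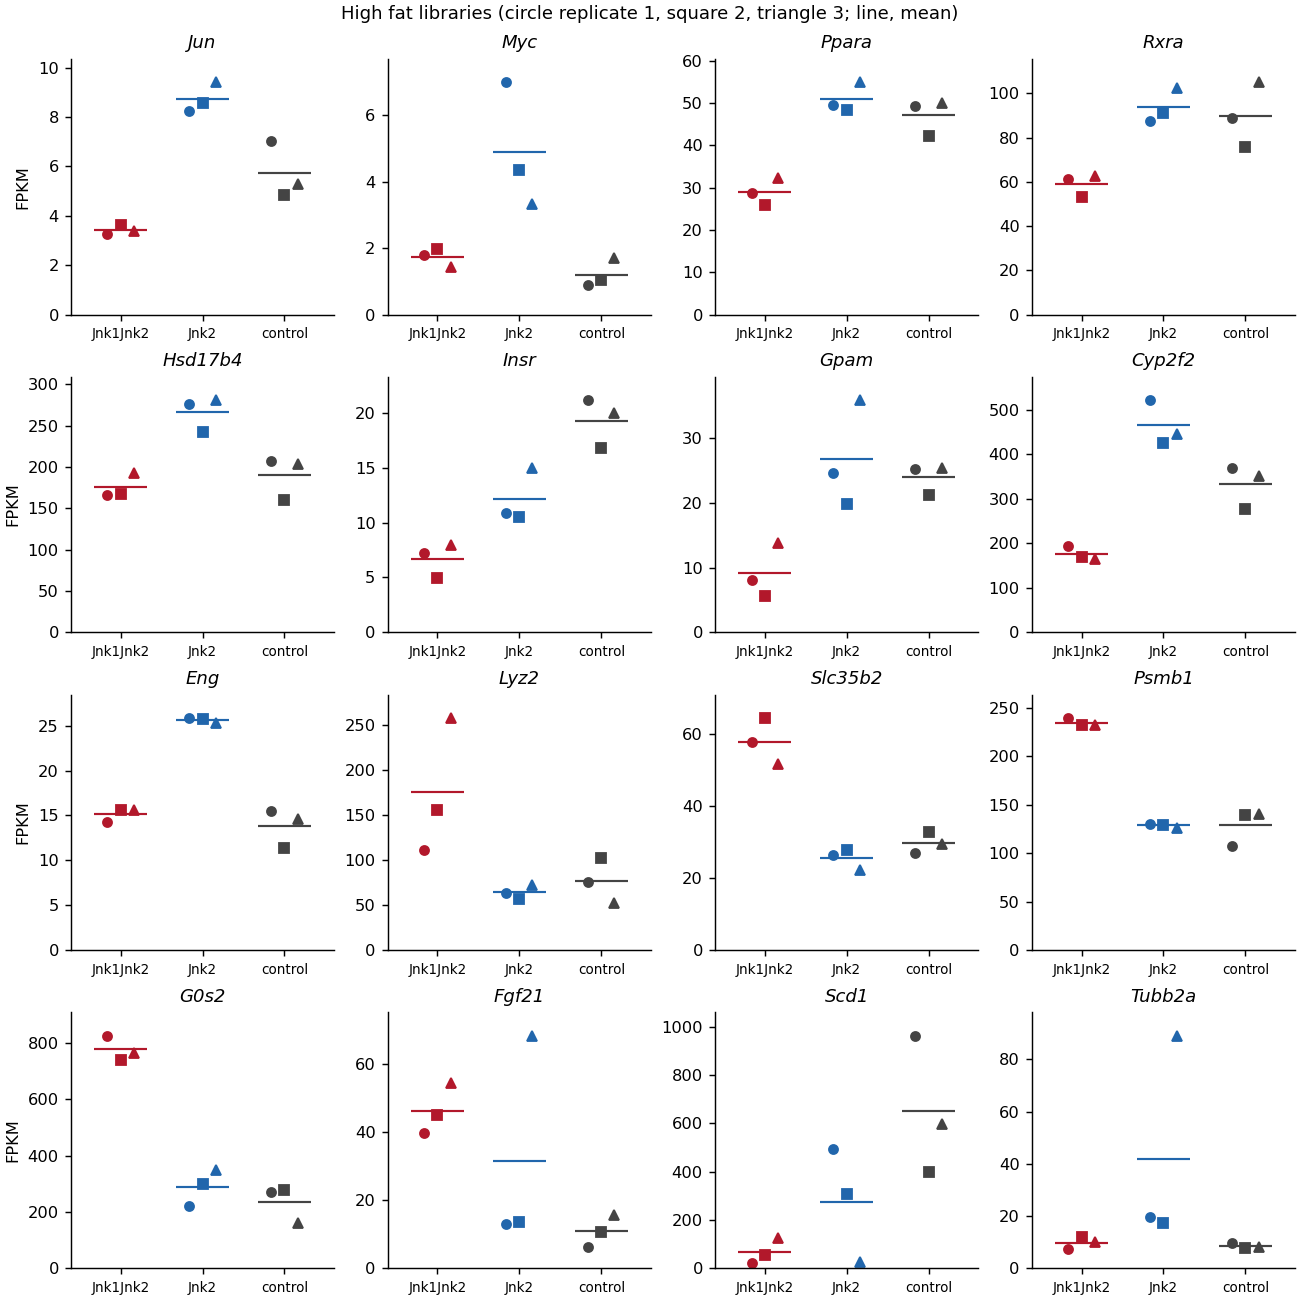
Each plot gives FPKM in the 3 libraries of the high fat Jnk1Jnk2, Jnk2 and control groups (circle replicate 1, square 2, triangle 3, line the mean). Jun, Ppara, Cyp2f2, Eng, Slc35b2 and Psmb1 separate the Jnk1Jnk2 and Jnk2 groups without overlap, as 50.9% of all loci tested did. The rule for the largest changes, which named Slc35b2, asked for no overlap. Fgf21, Scd1 and Tubb2a show Jnk2 replicate 3 apart from its mates.

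Genes with short transcripts that make up the ribosome, the respiratory chain and the proteasome were higher in large numbers as deposited and in fewer without the length trend. Of 68 oxidative phosphorylation genes (median length 838 bases), 53 were higher and 4 lower as deposited, and 13 rose and 4 fell both ways; the median was 0.61 as deposited and 0.11 without the trend. Leaving out 1 library left 8 to 10 that rose and 1 to 3 that fell, with 8 that rose without Jnk2 replicate 3. Ndufb7, a subunit of complex I, had 249, 300 and 293 FPKM in Jnk1Jnk2 livers, against 134, 131 and 119 FPKM in Jnk2 livers. Its change of 1.13 ± 0.12 (adjusted p = 1.11e-05) was 0.53 (adjusted p = 0.00112) without the trend. Ndufs8 of complex I changed by 0.85 ± 0.12 (adjusted p = 6.15e-05) and Sdhd of complex II by 0.79 ± 0.13 (adjusted p = 0.000109). Sdha, the catalytic subunit of complex II, went the other way from Sdhd, at 76.8, 77.3 and 89.1 FPKM in Jnk1Jnk2 livers, against 153, 133 and 130 FPKM in Jnk2 livers (change -0.77 ± 0.10, adjusted p = 3.64e-05; without the trend -0.56, adjusted p = 0.000314). Of 53 ribosomal protein genes (median length 833 bases), 38 were higher and 0 lower as deposited, and 10 rose and 0 fell both ways, with medians of 0.52 and 0.05. The rises were 2 without Jnk2 replicate 1, 5 without Jnk1Jnk2 replicate 1 and 4 without Jnk1Jnk2 replicate 2. Many have near-identical pseudogenes that can share reads, so single values are uncertain. Rpl11 averaged 889 ± 69.6 FPKM in Jnk1Jnk2 livers and 492 ± 63.1 FPKM in Jnk2 livers, and Rplp0 523 ± 12.4 FPKM in Jnk1Jnk2 livers and 323 ± 19.7 FPKM in Jnk2 livers (SD, n = 3 each). Without the trend, both calls ended when Jnk2 replicate 1 was left out (adjusted p = 0.0653 for Rpl11 and 0.0513 for Rplp0).

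Part of the proteasome rose. Of 31 genes, 21 were higher and 2 lower as deposited, and 10 rose and 0 fell both ways, with medians of 0.44 and 0.18. Psmb1, a subunit of the catalytic core, had 239, 232 and 232 FPKM in Jnk1Jnk2 livers, against 130, 129 and 126 FPKM in Jnk2 livers. The libraries of each group were nearly equal, and the change was 0.86 ± 0.11 (adjusted p = 2.84e-05), or 0.79 (adjusted p = 7.59e-05) without the trend. Psma7 of the core averaged 266 ± 12.7 FPKM in Jnk1Jnk2 livers and 129 ± 5.72 FPKM in Jnk2 livers. Psmb6 of the core averaged 181 ± 21.9 FPKM in Jnk1Jnk2 livers and 92.8 ± 6.1 FPKM in Jnk2 livers. Psmd13 of the regulatory lid averaged 72.1 ± 8.56 FPKM in Jnk1Jnk2 livers and 44 ± 2.04 FPKM in Jnk2 livers (SD, n = 3 each), and its change of 0.69 ± 0.11 was the same without the trend.

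**Figure D4:**
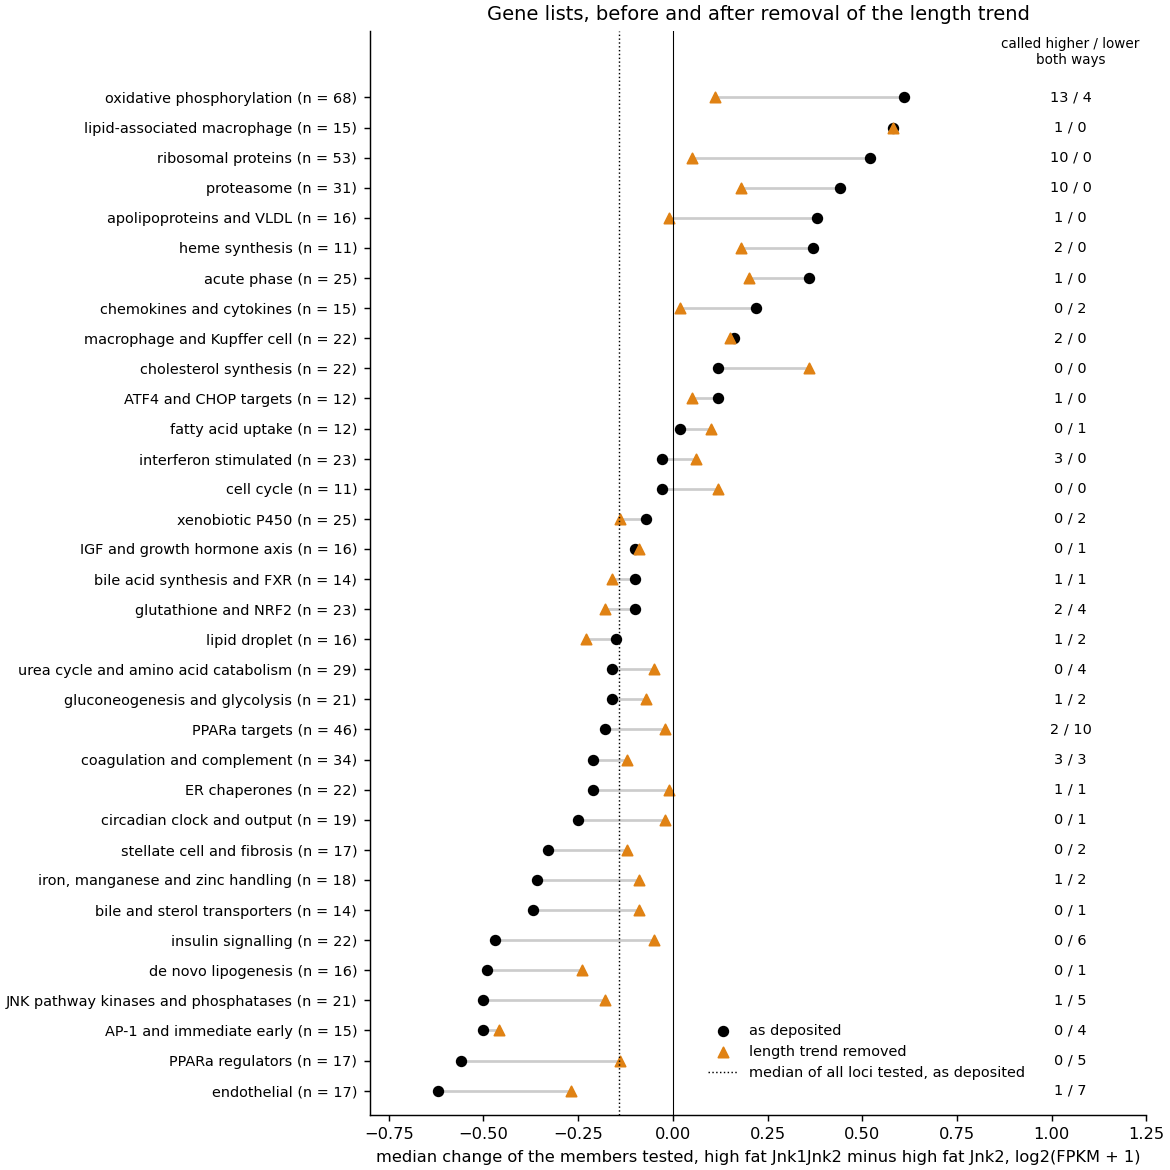
The median change of the tested members of 34 gene lists, high fat Jnk1Jnk2 minus high fat Jnk2 in log2(FPKM + 1), is given as deposited (circle) and with the length trend removed (triangle), with the number of members tested and the number called higher and lower both ways. Oxidative phosphorylation moves from 0.61 to 0.11 and insulin signalling from -0.47 to -0.05 on removal of the trend, whereas AP-1 moves from -0.50 to -0.46.

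Markers of other liver cells also differed. In these bulk samples, fewer cells of a type and less RNA per cell cannot be told apart. Of 17 endothelial markers, 7 fell and 1 rose, beside 10.4% and 6.31% of all loci. As deposited 12 were lower and 2 higher, beside 33.2% and 15.3%. The medians were -0.62 as deposited and -0.27 without the length trend. Their summed level was 162 to 193 FPKM in Jnk1Jnk2 livers and 203 to 219 FPKM in Jnk2 livers, against 119 to 175 FPKM in all other libraries of the study. Eng, the endothelial coreceptor endoglin, had 14.3, 15.6 and 15.6 FPKM in Jnk1Jnk2 livers, against 25.9, 25.8 and 25.3 FPKM in Jnk2 livers (change -0.72 ± 0.10, adjusted p = 4.68e-05). Control livers had 13.9 ± 2.19 FPKM, so the Jnk2 livers stood out. Kdr, the VEGF receptor, averaged 3.43 ± 0.377 FPKM in Jnk1Jnk2 livers and 7.24 ± 1.11 FPKM in Jnk2 livers, and Cdh5, the endothelial cadherin, 4.02 ± 0.688 FPKM in Jnk1Jnk2 livers and 7.52 ± 1.04 FPKM in Jnk2 livers (SD, n = 3 each). Ehd3 and Oit3, which mark liver sinusoidal cells in mice, changed by -0.89 ± 0.11 (adjusted p = 2.7e-05) and by -0.86 ± 0.13 (adjusted p = 7.55e-05), and the phosphatase Ptprb by -0.75 ± 0.10 (adjusted p = 3.44e-05). Pecam1, the adhesion molecule CD31, and Egfl7, a secreted endothelial protein, were chosen after their values were seen. Pecam1 averaged 3.99 ± 0.221 FPKM in Jnk1Jnk2 livers and 6.82 ± 0.969 FPKM in Jnk2 livers; without the trend its call ended on leaving out Jnk2 replicate 1 (adjusted p = 0.0501) or Jnk1Jnk2 replicate 3 (adjusted p = 0.0524). Egfl7 was the marker that rose, at 23.1 ± 3.5 FPKM in Jnk1Jnk2 livers and 13.8 ± 1.96 FPKM in Jnk2 livers.

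Few macrophage markers passed both ways. Of 22 tested, 2 rose and 0 fell, beside 6.31% and 10.4% of all loci; as deposited 8 were higher and 0 lower, with medians of 0.16 and 0.15. Their sum was 821 to 1033 FPKM in Jnk1Jnk2 livers and 553 to 747 FPKM in Jnk2 livers, against 276 to 697 FPKM in the other libraries. Lyz2, the lysozyme of myeloid cells, had 111, 156 and 257 FPKM in Jnk1Jnk2 livers, against 63.8, 57.2 and 72.4 FPKM in Jnk2 livers (change 1.35 ± 0.27, adjusted p = 0.000644). Of 15 markers of lipid-associated macrophages, 1 rose and 0 fell, with medians of 0.58 both as deposited and without the trend. Both the count and the medians turned on single libraries. Without Jnk1Jnk2 replicate 1, 11 rose, with medians of 1.18 as deposited and 0.98 without the trend. Without Jnk2 replicate 3, 3 rose. Without Jnk1Jnk2 replicate 2 the medians were 0.38 and 0.39, and without Jnk1Jnk2 replicate 3 they were 0.24 and 0.35, with 1 that rose and 1 that fell. Spp1, osteopontin, had 32.6, 50 and 60.3 FPKM in Jnk1Jnk2 livers, against 25.1, 19 and 20.7 FPKM in Jnk2 livers (change 1.07 ± 0.20, adjusted p = 0.000376). The other defining members depended on the library. Gpnmb, a lysosomal glycoprotein of these cells, had 0.949, 19.3 and 20 FPKM in Jnk1Jnk2 livers, against 4.49, 2.47 and 7.66 FPKM in Jnk2 livers, and was not called (change 0.78 ± 0.57, adjusted p = 0.268). Leaving out Jnk1Jnk2 replicate 1 gave 1.91 (adjusted p = 0.000119). Trem2, a lipid receptor chosen after its values were seen, had 2.95, 12.4 and 15.7 FPKM in Jnk1Jnk2 livers, against 2.99, 2.86 and 4.74 FPKM in Jnk2 livers. Its change was 1.11 ± 0.36 (adjusted p = 0.0163) with all libraries and 1.75 (adjusted p = 0.000104) without Jnk1Jnk2 replicate 1. It was not called without Jnk2 replicate 1 or 2 (adjusted p = 0.0519 and 0.0516), without Jnk1Jnk2 replicate 2 or 3 (0.0906 and 0.113, the last at 0.71), or without the length trend (0.154).

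Of 13 cholangiocyte markers only 6 were tested. Of these 3 fell and 1, Spp1 again, rose, beside 10.4% and 6.31% of all loci. Krt8 and Krt18, keratins that hepatocytes also express, averaged 95.8 ± 8.22 and 98.3 ± 3.25 FPKM in Jnk1Jnk2 livers, and 140 ± 30.2 and 123 ± 9.82 FPKM in Jnk2 livers (SD, n = 3 each). After scaling by size factors Krt18 was not called (-0.19, adjusted p = 0.103). Of 17 stellate cell and fibrosis genes, 2 fell and 0 rose, beside 10.4% and 6.31% of all loci. The part of these cell type markers in the other results was not tested.

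Genes of secreted defence proteins were mixed. Of 25 acute phase genes, 7 were higher and 0 lower as deposited, and 1 rose both ways, beside 6.31% of all loci that rose. That was Apcs, serum amyloid P, at 145, 137 and 179 FPKM in Jnk1Jnk2 livers, against 57.6, 45 and 61.1 FPKM in Jnk2 livers (change 1.48 ± 0.27, adjusted p = 0.000285). Control livers had 186 ± 15.4 FPKM, so the Jnk2 livers were the low ones. Without the trend the change was 1.02 (adjusted p = 0.0129), and 0.85 (adjusted p = 0.0552) without Jnk2 replicate 2 as well. Of 34 coagulation and complement genes, 3 rose and 3 fell, beside 6.31% and 10.4% of all loci. The rises included Mbl1, a mannose-binding lectin, at 263 ± 13.6 FPKM in Jnk1Jnk2 livers and 166 ± 16.8 FPKM in Jnk2 livers (change 0.67 ± 0.10, adjusted p = 6.15e-05), and C8g, a complement component (change 1.09 ± 0.15, adjusted p = 5.38e-05). Masp1, a protease that works with the lectins, fell, at 9.62 ± 2.07 FPKM in Jnk1Jnk2 livers and 19.6 ± 1.74 FPKM in Jnk2 livers (SD, n = 3 each; change -0.97 ± 0.17, adjusted p = 0.00023). Of 23 interferon-stimulated genes 3 rose and 0 fell, among them Irf7, the regulator of type I interferon (change 0.71 ± 0.18, adjusted p = 0.0039), and Oas1a, an oligoadenylate synthetase (change 0.58 ± 0.14, adjusted p = 0.00238).

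Few genes of the other metabolic lists passed both ways. Of 29 genes of the urea cycle and amino acid catabolism, 4 fell and 0 rose, beside 10.4% and 6.31% of all loci. The falls included Uroc1, the urocanase of histidine breakdown, at 56.5 ± 3.62 FPKM in Jnk1Jnk2 livers and 111 ± 17.3 FPKM in Jnk2 livers (change -0.95 ± 0.13, adjusted p = 5.41e-05). Got2, the mitochondrial aspartate aminotransferase, also implicated in fatty acid uptake, was the 1 of 12 fatty acid uptake genes that fell. It averaged 187 ± 5.94 FPKM in Jnk1Jnk2 livers and 274 ± 11.8 FPKM in Jnk2 livers (change -0.55 ± 0.08, adjusted p = 6e-05). Of 11 heme synthesis genes 2 rose and 0 fell. Of 22 cholesterol synthesis genes and 11 cell cycle genes, 0 rose and 0 fell both ways; as deposited 2 and 1 were higher and 2 and 0 lower. The median of the cholesterol synthesis genes was 0.12 as deposited and 0.36 without the trend. Of 22 ER chaperone genes 1 rose and 1 fell, and the fall was Ern1, which encodes the stress sensor IRE1α, at 1.43, 1.08 and 2.36 FPKM in Jnk1Jnk2 livers, against 3.66, 3.49 and 4.15 FPKM in Jnk2 livers (change -0.89 ± 0.14, adjusted p = 9.35e-05). Without the trend its call ended on leaving out Jnk1Jnk2 replicate 2 (-0.34, adjusted p = 0.0534).

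Ranked by the change without the length trend, among genes whose groups did not overlap, the largest changes included several outside these lists. The changes printed for these rises and falls are as deposited. Slc35b2, the Golgi carrier of the sulfate donor PAPS, had 57.6, 64.4 and 51.5 FPKM in Jnk1Jnk2 livers, against 26.3, 27.8 and 22.3 FPKM in Jnk2 livers (change 1.15 ± 0.10, adjusted p = 1.63e-06). Sult5a1, a sulfotransferase, had 26.5, 23.6 and 31.7 FPKM in Jnk1Jnk2 livers, against 13.5, 11.8 and 6.77 FPKM in Jnk2 livers (change 1.32 ± 0.24, adjusted p = 0.000304). Both genes serve sulfation. Enho, which encodes the secreted peptide adropin, had 33.9, 30.4 and 27.3 FPKM in Jnk1Jnk2 livers, against 5.34, 13.3 and 12.1 FPKM in Jnk2 livers (change 1.57 ± 0.28, adjusted p = 0.000252). Paox, a polyamine oxidase, averaged 18.9 ± 3.64 FPKM in Jnk1Jnk2 livers and 8.95 ± 2.09 FPKM in Jnk2 livers. Mmp7, the secreted protease matrilysin, had 2.02, 3.63 and 3.67 FPKM in Jnk1Jnk2 livers, against 0.21, 0.305 and 0.543 FPKM in Jnk2 livers (change 1.58 ± 0.26, adjusted p = 0.00015), with 0.204 ± 0.0355 FPKM in control livers (SD, n = 3).

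Among the falls, Anxa5, a protein that binds phosphatidylserine, had 21.4, 29 and 29.6 FPKM in Jnk1Jnk2 livers, against 70.9, 53.7 and 86 FPKM in Jnk2 livers (change -1.35 ± 0.16, adjusted p = 1.68e-05). Nfix, a transcription factor of the nuclear factor I family, had 5.04, 3.52 and 7.35 FPKM in Jnk1Jnk2 livers, against 16.2, 15 and 15.8 FPKM in Jnk2 livers (change -1.45 ± 0.18, adjusted p = 2.27e-05). The Jnk1Jnk2 libraries were low for both genes. Palld, an actin scaffold, averaged 3.08 ± 1.42 FPKM in Jnk1Jnk2 livers and 11.5 ± 1.14 FPKM in Jnk2 livers (change -1.67 ± 0.20, adjusted p = 1.68e-05). Numb, an inhibitor of Notch signalling, averaged 3.96 ± 1.64 FPKM in Jnk1Jnk2 livers and 10.6 ± 2.35 FPKM in Jnk2 livers (SD, n = 3 each; change -1.27 ± 0.18, adjusted p = 6.07e-05). Rnf125, a ubiquitin ligase, had 7.99, 4.23 and 10.4 FPKM in Jnk1Jnk2 livers, against 23, 16.6 and 36 FPKM in Jnk2 livers (change -1.62 ± 0.36, adjusted p = 0.00136). Jnk1Jnk2 replicate 2 had the lowest level of Nfix, Palld, Numb and Rnf125. Tubb2a, a beta-tubulin, had 7.41, 11.8 and 9.96 FPKM in Jnk1Jnk2 livers, against 19.7, 17.1 and 89.1 FPKM in Jnk2 livers. Its change of -1.61 ± 0.38 (adjusted p = 0.00218) became -0.87 (adjusted p = 0.00388) without Jnk2 replicate 3.

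On chow, few loci passed the test between Jnk1Jnk2 and Jnk2 livers. Of 10562 loci, 5 were called (0.0473%), with 453 at an unadjusted p under 0.05, and 4 of 10194 (0.0392%) without the length trend. The 5 were Mapk8 (1.99, 1.9 and 2.47 FPKM in Jnk1Jnk2 livers, against 5.23, 5.18 and 5.2 FPKM in Jnk2 livers), its neighbours Fam25c (-3.46 ± 0.32) and Gm3219 (-1.86 ± 0.25), BC044868 (2.67 ± 0.21) and 2510049J12Rik (-0.62 ± 0.10), a RIKEN cDNA gene chosen after its values were seen. On high fat, 2510049J12Rik averaged 4.71 ± 0.767 FPKM in Jnk1Jnk2 livers and 5.47 ± 0.657 FPKM in Jnk2 livers and was not called as deposited (adjusted p = 0.154), but was without the length trend (-0.64, adjusted p = 0.0001). The difference between the diets was itself called at 3048 loci (28.9%), 1066 with a more positive and 1982 with a more negative change on high fat. With size factors the split was 1464 to 1450. Without the length trend the difference was called at 785 loci (7.7%), 406 more positive and 379 more negative. Leaving out high fat Jnk1Jnk2 replicate 2 reduced these counts to 1973 and 428. Cyp2f2 averaged 176 ± 16.1 FPKM in Jnk1Jnk2 livers and 464 ± 50.3 FPKM in Jnk2 livers on high fat, and 454 ± 47.5 FPKM in Jnk1Jnk2 livers and 381 ± 22.3 FPKM in Jnk2 livers on chow (difference between diets -1.64 ± 0.17, adjusted p = 0.000111). Slc35b2 averaged 57.8 ± 6.44 FPKM in Jnk1Jnk2 livers and 25.5 ± 2.84 FPKM in Jnk2 livers on high fat, and 26.9 ± 0.3 FPKM in Jnk1Jnk2 livers and 27.5 ± 1.94 FPKM in Jnk2 livers on chow (SD, n = 3 each; difference 1.18 ± 0.15, adjusted p = 0.00052). For Slc35b2 the high fat Jnk1Jnk2 group alone lay apart among these groups.

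**Figure D5:**
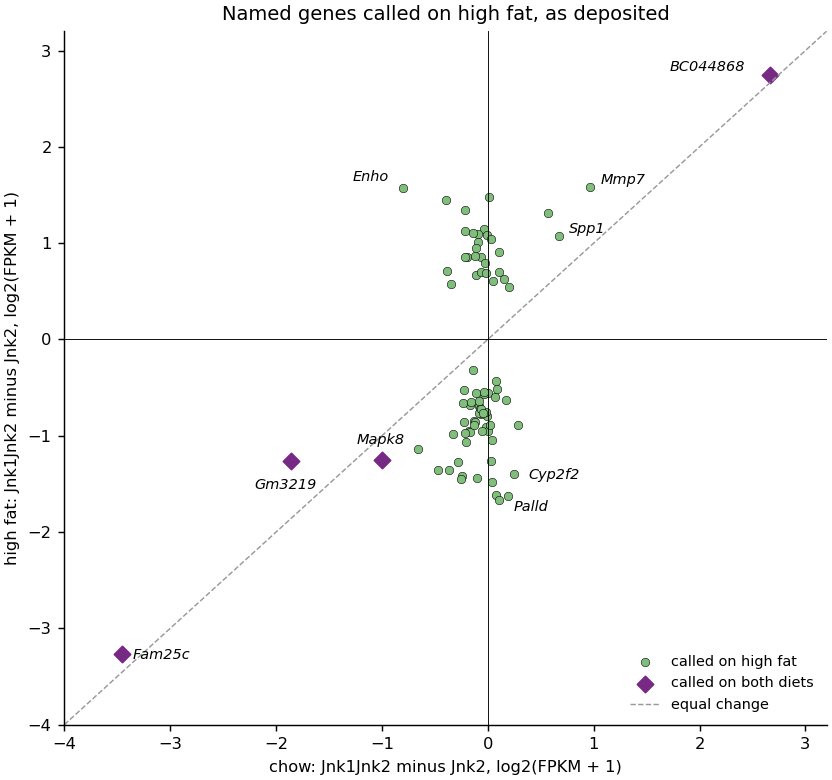
Each point is 1 of 84 named genes called on high fat, with the change on chow (Jnk1Jnk2 minus Jnk2, log2(FPKM + 1)) across and the change on high fat up. On chow 75 of them lie within 0.5 of 0, and 4, drawn as diamonds, were called on both diets. Only genes called on high fat are drawn, so a smaller change on chow is partly fixed by that choice.

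The change with loss of JNK1 was also compared between livers without and with JNK2. On high fat, the change of Jnk1Jnk2 against Jnk2 livers was set against that of Jnk1 against control livers, and it differed at 3904 loci (37.0%), 1325 more positive and 2579 more negative without JNK2. With size factors the split was 1899 to 1988, and without the length trend 1790 loci were called (17.6%), 865 more positive and 925 more negative. Ppara showed opposite directions: it averaged 29 ± 3.27 FPKM in Jnk1Jnk2 livers and 51 ± 3.48 FPKM in Jnk2 livers, but 67.7 ± 4.34 FPKM in Jnk1 livers and 47.3 ± 4.39 FPKM in control livers (SD, n = 3 each; difference of changes -1.31 ± 0.16, adjusted p = 6.67e-05). Eif4ebp2 differed by -1.65 ± 0.22 (adjusted p = 0.000113), Got2 by -0.84 ± 0.11 (adjusted p = 0.000113) and Ptprb by -1.13 ± 0.14 (adjusted p = 8.06e-05). Without the length trend the difference for Ptprb was -0.64. Pnpla7 differed by 1.45 ± 0.20 (adjusted p = 0.000137), with 91.9 ± 8.97 FPKM in Jnk1Jnk2 livers and 48.6 ± 7.53 FPKM in Jnk2 livers, beside 26.6 ± 1.6 FPKM in Jnk1 livers and 39.9 ± 10 FPKM in control livers. Its rise with the added loss stood against a lower mean in Jnk1 than in control livers. The length trend was held by the high fat Jnk1Jnk2 libraries, so it enters each of these differences.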

How the data were processed

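Liver RNA-seq of 24 libraries was used, 3 in each of 8 groups named by the labels. The deposited values are FPKM, which the authors made per locus for 31027 loci; per the submitters' processing notes TopHat, Cufflinks and Cuffdiff were run on mm10, with versions not given in the sources used here. Per the labels' protocols, an RNeasy kit was used and RNA integrity was checked. Whether counting used strand is not given in the sources used here.

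A count model cannot be fitted to FPKM. Instead, log2(FPKM + 1) of loci with a mean of at least 1 FPKM over all libraries (10562 loci, 248 of them with several gene names) was fitted with limma 3.58.1 in R 4.3.3, 1 mean per group over all 24 libraries, with empirical Bayes variances (residual degrees of freedom 16) and Benjamini-Hochberg adjustment. Transcript length was the median over coding GENCODE models linked to RefSeq and was found for 10194 loci (96.5%). For the results without the length trend, each library's deviation from the mean of all libraries was smoothed on log length by loess (span 0.5), the curve was subtracted and the fit repeated. That step also removes biology that follows length. Depth per library is known only relative to the deepest, from the step between low FPKM values. For replicates 1, 2 and 3 it was 0.63, 0.73 and 0.3 in the high fat Jnk1Jnk2 group and 0.75, 0.52 and 0.68 in the high fat Jnk2 group. No counting intervals can be given. The fits were tested on simulated data.

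The groups, the 45 gene lists (928 symbols, 796 tested) and the genes were chosen with earlier results of these data known, so no list is independent evidence of its direction. Genes were named by this rule: the targeted genes, Fgf21 and Ppara; the 15 largest rises and 15 largest falls without the length trend among loci called both ways with no overlap; up to 6 members of each list called both ways and up to 2 that did not pass; called loci within 5 Mb of Mapk8 or Mapk9; and, among these, the 5 of smallest p in each direction for each of both interactions. The rule names 284 genes, of which a part is printed (some are not reported here), and 9 more were added after their values were seen and are marked so. Same-numbered libraries did not deviate together, so no pairing was used. The alternatives were other pseudocounts, filters, scalings, weights, length models and a GC trend, smaller fits, a replicate block, and leaving out each library, 27 in all. Promoter windows are from RefSeq (GRCm38.p6).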

Additional observations from a re-analysis of the deposited data

Results flagged for a closer look

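The change with added JNK1 loss differed between groups at many loci, by a test of the difference itself in limma with Benjamini-Hochberg adjustment. Between the diets it differed at 3048 loci (28.9%), and between livers without and with JNK2 on high fat at 3904 loci (37.0%). With the length trend removed these were 785 loci (7.7%) and 1790 loci (17.6%). The genes below have the smallest p among genes mostly named for their change on high fat. That change enters both differences, so large differences in its direction were favoured by the choice.

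Among the named genes, the change on high fat was more positive than on chow for Ndufb7 (1.34), Slc35b2 (1.18), Psmb6 (1.07), Gstt2 (1.06) and Psmb1 (0.98). It was more negative for Palld (-1.78), Cyp2f2 (-1.64), Eif4ebp2 (-1.33), Ern1 (-1.18) and Sh3bp5 (-1.08). All 10 were still called with the length trend removed, but smaller at Ndufb7 (0.62), Psmb6 (0.42) and Ern1 (-0.75), and on leaving out any 1 of the 6 high fat libraries as deposited.

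The change without JNK2 was more positive than with JNK2 for Pnpla7 (1.45), Slc35b2 (1.29), Ndufb7 (1.05), Psmb1 (0.97) and Mbl1 (0.94). It was more negative for Eif4ebp2 (-1.65), Cyp2f2 (-1.57), Ppara (-1.31), Ptprb (-1.13) and Got2 (-0.84). With the length trend removed, Ndufb7 fell to 0.39 and was no longer called (adjusted p = 0.0565), while the other 9 were still called, with Ptprb at -0.64.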

How the results depend on the processing

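With all 6 libraries, 5121 loci were called. Array weights, other pseudocounts, filters, scalings and a fit of only the high fat libraries kept that count within 1.5 times, while a fit of only the 2 groups gave 3074. Removing the length trend gave 2376, length and GC 2460 and the longest coding model, chosen after seeing the data, 2468. Leaving out 1 library gave 4017 to 5041, and 1538 to 2216 with the length trend removed, both lowest without Jnk1Jnk2 replicate 2. The difference between diets was called at 785 loci with the length trend removed, 876 with length and GC removed, 832 with the longest model, 1973 to 3251 with 1 library left out, and 428 to 879 with the trend removed as well. The difference by presence of JNK2 was called at 1790, 1787, 1876, 3104 to 3972 and 1279 to 1835 loci in the same settings. On chow, loci of at least 5 FPKM gave 2 calls.

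The replicate numbers did not pair the libraries (correlations of deviations -0.17, 0.12 and -0.05). The replicate block gave 5044 calls as deposited and 2291 without the length trend, against 698 for the difference between diets and 1679 for that by presence of JNK2 without the trend. Mapk9 was -0.16 without the trend (adjusted p = 0.0763 under the block), -0.15 with length and GC removed, -0.19 with the longest model, and, on leaving out 1 library, -0.62 (without Jnk2 replicate 2) to -0.51 as deposited and -0.20 to -0.12 without the trend.

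2510049J12Rik was 0.0021 after quantile normalization. Cyp4a14 was 0.18 under array weights, and 0.21 as deposited or 0.33 without the trend on leaving out Jnk2 replicate 3, in a range of -0.73 to 0.33 over the libraries left out. Of 5021 loci called as deposited that have a length, 1705 were also called in the same direction without the trend. On leaving out 1 library, the counts both ways were 0 to 3 rises in cholesterol synthesis, 1 to 4 in heme synthesis and 0 to 2 in the acute phase. The falls were 1 to 4 in the urea cycle list, 2 to 5 in glutathione, 1 to 6 in coagulation and complement, 0 to 4 in ER chaperones and 0 to 2 in stellate cells. The cause of these shifts was not tested. Unknown depth limits what can be said of loci near 1 FPKM.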
